A study of Mus musculus with 58 samples.

Results

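The genes of the mitochondrial ribosome were followed through 58 single blood progenitor cells of the mouse. They were chosen by symbol alone, as rows named Mrps or Mrpl followed by a digit, with at least 20 counts over all cells. The table listed 23152 symbols, of which 10937 reached that minimum. The pattern matched 77 symbols, and all 77 reached the minimum. Each cell was sorted from the bone marrow of wild-type C57BL/6 mice, and all cells carried the same strain and genotype labels. The 34 long-term haematopoietic stem cells (LT-HSC) came from a gate without lineage markers, Flt3 or CD34 and with Kit and Sca-1. The 24 common myeloid progenitors (CMP) came from a gate without lineage markers, Sca-1 or CD16/32 and with Kit and CD34. RNA was primed at the poly(A) tail and the 3′ ends of the amplified cDNA were captured and sequenced.

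The LT-HSC were also read as 2 sets, cells 1 to 16 and cells 17 to 34, by the numbers in their titles. No label says what separates these numbers. No label names an animal, and the age of the mice was not given in the labels. The labels carry a passage number for these sorted cells and do not explain it. Each gate counts as 1 sample. Differences therefore lack a check by replicates, and no p-value was computed. Intervals are 95% intervals that cover counting error only, and if the table counts reads instead of molecules the true error is larger. The labels describe molecular identifiers in the primer, but which of the 2 was counted is not given in the sources used here.

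Mitochondria carry their own small genome, which encodes a handful of respiratory chain subunits, and a dedicated ribosome translates them at the inner membrane. Its RNA comes from the mitochondrial genome, while every one of its proteins is encoded in the nucleus, made in the cytoplasm and imported. The small subunit binds the messenger and hosts decoding, and the large subunit joins amino acids and passes the chain out through an exit tunnel. Some of its proteins have bacterial relatives and others exist only in mitochondria. In blood formation, stem cells are known for low mitochondrial activity and a low rate of protein synthesis.

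Of the 77 genes, 26 encode proteins of the small subunit and 50 proteins of the large subunit. Despite their symbols, Mrps18a and Mrps30 encode large-subunit proteins and were placed there. Mrps36 was kept apart, because its product is now known as a component of the oxoglutarate dehydrogenase complex in mammals. All 77 symbols matched 1 gene each in GENCODE M21 on mm10, on 17 chromosomes and all on autosomes. Chromosome 11 held the most, at 10.

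Promoter sequences of RefSeq on GRCm38.p6 were available for 68 of the genes, as 74 windows running from 250 bases before to 50 bases after a start. The letters CCGGAAG, a core bound by ETS family factors, stood in 25 of the 68 genes and in 33.8% of their windows, against 8.86% of all 32851 promoter windows in the table. GCGC, any base and then TGCGC, a motif of NRF1, a regulator of nuclear genes for mitochondria, stood in 13 genes and 17.6% of windows, against 4.60% of all. The letters AAGATGGCG, a YY1 motif often found at the start site, stood in 8 genes and 10.8% of windows, against 1.40% of all. The E-box CACGTG, a motif of MYC, stood in 5 genes, or 7.35% of the 68, and 9.46% of windows, against 7.15% of all. That share of windows counts Mrpl2 more than once, since its overlapping windows each hold the E-box. Both strands were searched, and no 2 different motifs overlapped in a window of these genes. At least 1 of the first 3 motifs stood in 40 genes, and at least 2 of them in 6 genes. A match is a description of letters and not of binding.

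The 5 windows below show these motifs in the letters themselves: 4 genes with more than 1 of the first 3 motifs, and Mrpl2, whose window held only the E-box and whose ratio between the LT-HSC sets was the lowest. Capitals mark the matches on either strand, and each window reads 5′ to 3′ on the strand of its gene. They lie at chr2:130563507-130563806, chr14:57825989-57826288, chr13:99344536-99344835, chr17:46110754-46111053 and chr17:46645971-46646270, in the order printed and all on the plus strand.
Mrps26: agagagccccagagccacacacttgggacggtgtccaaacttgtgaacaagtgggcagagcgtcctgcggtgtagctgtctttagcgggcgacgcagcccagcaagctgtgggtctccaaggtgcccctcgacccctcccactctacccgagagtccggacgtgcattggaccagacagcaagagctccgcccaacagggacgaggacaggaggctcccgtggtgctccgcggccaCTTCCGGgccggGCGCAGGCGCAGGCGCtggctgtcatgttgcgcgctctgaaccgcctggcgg
Mrpl57: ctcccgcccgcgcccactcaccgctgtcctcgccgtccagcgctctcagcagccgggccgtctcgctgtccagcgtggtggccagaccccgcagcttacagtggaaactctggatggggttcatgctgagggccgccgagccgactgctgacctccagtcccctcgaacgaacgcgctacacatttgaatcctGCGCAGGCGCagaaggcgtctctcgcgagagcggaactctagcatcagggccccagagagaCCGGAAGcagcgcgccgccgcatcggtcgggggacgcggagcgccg
Mrps27: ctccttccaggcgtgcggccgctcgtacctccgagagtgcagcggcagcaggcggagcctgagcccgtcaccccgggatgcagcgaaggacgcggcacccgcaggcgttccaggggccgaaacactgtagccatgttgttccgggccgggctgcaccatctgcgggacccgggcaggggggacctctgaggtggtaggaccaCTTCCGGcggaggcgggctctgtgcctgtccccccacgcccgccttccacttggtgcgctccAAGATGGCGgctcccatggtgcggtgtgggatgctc
Mrps18a: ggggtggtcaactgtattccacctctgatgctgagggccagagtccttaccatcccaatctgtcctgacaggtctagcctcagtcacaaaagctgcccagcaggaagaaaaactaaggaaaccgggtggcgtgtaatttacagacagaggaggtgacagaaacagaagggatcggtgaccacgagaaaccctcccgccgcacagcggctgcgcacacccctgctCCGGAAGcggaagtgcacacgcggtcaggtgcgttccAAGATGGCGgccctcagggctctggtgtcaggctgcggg
Mrpl2: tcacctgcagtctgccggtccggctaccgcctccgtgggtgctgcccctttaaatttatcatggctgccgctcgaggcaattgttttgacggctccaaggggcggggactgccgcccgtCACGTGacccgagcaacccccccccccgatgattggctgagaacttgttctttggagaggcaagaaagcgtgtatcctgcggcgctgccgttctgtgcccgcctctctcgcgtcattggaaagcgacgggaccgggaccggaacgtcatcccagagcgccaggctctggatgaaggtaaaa
Mrps26 has an ETS core on the opposite strand followed by a pair of NRF1 matches, also on that strand, that overlap each other. Mrpl57 has an NRF1 match on the opposite strand ahead of the ETS core. Mrps27, with its ETS core on the opposite strand, and Mrps18a both have a YY1 motif after that core, near the 3′ end of the window. The motifs and windows shown were chosen after the values were seen.

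Summed over each list, stem cell markers were higher in LT-HSC and CMP markers in CMP. Single markers did not all do so. Cd34, which the CMP gate requires and the LT-HSC gate excludes, had a log2 ratio of LT-HSC over CMP of 0.30. It was the 1 CMP marker of 11 above 0, and the ratio was 0.81 for LT-HSC 17 to 34 over CMP. For LT-HSC 1 to 16 over CMP all 11 lay below 0. Of 12 stem cell markers 1, Ctnnal1, lay below 0 between the gates. For LT-HSC 1 to 16 over CMP all 12 lay above 0. For LT-HSC 17 to 34 over CMP 6 lay above 0 and 6 below, and Hoxb5 had no count in LT-HSC 17 to 34. The 12 stem cell markers summed to 934 CPM (counts scaled so that every pool has an equal total) in the LT-HSC pool and 206 CPM in the CMP pool, and CMP markers to 841 CPM in LT-HSC and 5943 CPM in CMP. Ms4a1 and Pax5 of B cells, Cd3d, Cd3e, Cd3g and Cd8a of T cells and Cxcl12, Col1a1, Col3a1 and Cdh5 of stroma and endothelium were at 0 in both gates. Other markers of these cells were not: Nkg7, of T and NK cells, had 349 CPM in LT-HSC and 427 CPM in CMP, Cd79b, of B cells, at 80.8 CPM in LT-HSC and 47.1 CPM in CMP, and Pecam1, of endothelium, at 22.1 CPM in LT-HSC and 45.3 CPM in CMP. The macrophage markers Cd68 and Csf1r summed to 2.01 CPM in LT-HSC and 44.2 CPM in CMP. The part of these transcripts in the results was not tested. Mature neutrophil markers summed to 336 CPM in LT-HSC and 907 CPM in CMP. An LT-HSC held between 45022 and 860553 counts and a CMP between 88329 and 706184, and pooled totals were 9931131 and 7062737 counts. Xist was at 0 in all 34 LT-HSC and in CMP 1 and 2, whereas the other 22 CMP had counts. The presence of Xist counts thus nearly coincided with the gate, and the 2 cannot be told apart. Results are also given without CMP 1 and 2 where they differ, which leaves only CMP with Xist counts.

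Transcripts of the mitochondrial ribosome were present at nearly equal summed levels in both gates. Together the 77 genes held 211245 counts. They summed to 12430 CPM in the LT-HSC pool (interval 12360 to 12499) and 12432 CPM in the CMP pool (12350 to 12515). The log2 ratio of LT-HSC over CMP was −0.0003 (−0.01 to 0.01), and −0.12 when each cell's CPM was averaged. Small-subunit genes summed to 4093 CPM in LT-HSC and 3973 CPM in CMP, and large-subunit genes to 8196 CPM in LT-HSC and 8254 CPM in CMP. Cytoplasmic ribosomal proteins, the counterpart outside mitochondria, had a summed log2 ratio of 0.15 over 75 genes, and the nuclear subunits of the respiratory chain −0.11 over 75 genes.

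That equality of the gates joined 2 unlike LT-HSC sets. The summed level was 10219 CPM in LT-HSC 1 to 16 (10112 to 10327), 13586 CPM in LT-HSC 17 to 34 (13496 to 13675) and 12432 CPM in CMP. The log2 ratio to CMP was −0.28 for LT-HSC 1 to 16 and 0.13 for LT-HSC 17 to 34, 2 comparisons that share the CMP pool. Between the LT-HSC sets it was −0.41 (−0.43 to −0.39).

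Single cells showed the same order. In LT-HSC 1 to 16, the genes made up between 55.9 and 137 of every 10000 counts of a cell, with a median of 101. In LT-HSC 17 to 34 the share was 77.1 to 180 with a median of 131, and in CMP 96.8 to 158 with a median of 130. The ranges overlapped, but 14 of 16 LT-HSC 1 to 16 lay below the median of LT-HSC 17 to 34, and 14 of 16 below the median of CMP. Of these 16 cells, 8 lay below the lowest CMP and none above the highest. LT-HSC 17 to 34 spread to both sides of CMP, with 2 of 18 cells below the lowest CMP and 3 above the highest. The balance of the subunits was alike: the median ratio of large-subunit to small-subunit counts was 2.14 in LT-HSC 1 to 16, 2.14 in LT-HSC 17 to 34 and 2.10 in CMP. It ranged more widely in LT-HSC, from 1.15 to 3.36, than in CMP, from 1.40 to 2.71.

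**Figure D1:**
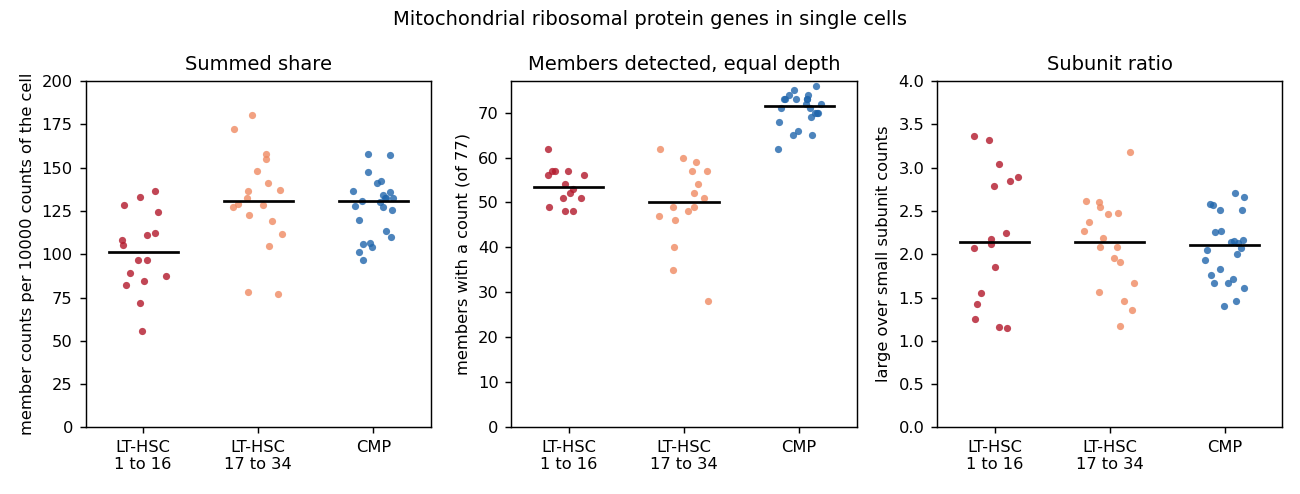
Each point is 1 cell, in LT-HSC 1 to 16, LT-HSC 17 to 34 and CMP, and black lines are medians; the panels plot the summed share per 10000 counts, the number of the 77 genes with a count after thinning each cell to 97978 counts, and the ratio of large-subunit to small-subunit counts. LT-HSC 1 to 16 sit lowest in the first panel (median 101 per 10000), both LT-HSC sets sit below nearly all CMP in the second, and the medians of the third lie between 2.10 and 2.14.

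Within each set, cells with a larger share of these transcripts tended to hold a larger share of respiratory chain transcripts. Across the cells of a set, the share of mitochondrial ribosomal genes and that of nuclear respiratory chain genes had a Spearman rho of 0.67 and a Pearson r of 0.55 in the 16 LT-HSC 1 to 16. They were 0.44 and 0.47 in the 18 LT-HSC 17 to 34, and 0.60 and 0.54 in the 24 CMP. The share of cytoplasmic ribosomal proteins had a rho of −0.19 in LT-HSC 1 to 16, −0.24 in LT-HSC 17 to 34 and −0.00 in CMP. With the share of mature neutrophil markers rho was −0.26 in LT-HSC 1 to 16 (r −0.21), −0.76 in LT-HSC 17 to 34 (r −0.59) and 0.08 in CMP (r 0.19). With stem cell markers rho was −0.31 in LT-HSC 1 to 16 (r −0.28), −0.41 in LT-HSC 17 to 34 (r −0.37) and −0.07 in CMP (r 0.06). These values describe cells that are not replicates and may share a library, and shares of the same total are not free of each other.

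Gene by gene, the stem cell and CMP pools differed little. The median log2 ratio of LT-HSC over CMP over the 77 genes was −0.06, against −0.13 over all 10937 genes. The interquartile range of the ratios was 0.65 on the log2 scale, against 2.03 for all genes and 1.44 for the 6029 genes within the same range of counts. At least 2-fold higher in LT-HSC were 3 genes, Mrps23, Mrpl49 and Mrpl44, that is 3.90% of them, against a background of 22.7% of all genes. At least 2-fold lower were 5 genes, Mrps2, Mrpl45, Mrps18b, Mrps35 and Mrps30, or 6.49%, against a background of 28.1%. Both shares lay below those of the whole table. After thinning, the one gene of the 3 at least 2-fold higher was Mrps23, with Mrpl49 and Mrpl44 just under that line. Scaling by the median of ratios moved the median of all genes by 0.15, the summed log2 ratio to 0.15 and the count of lower genes to 3.

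The genes with the most counts were close to level between the gates. Mrpl23, a protein at the rim of the exit tunnel, was found in all 58 cells. It had 15.4, 418 and 1045 CPM in the lowest, median and highest LT-HSC 1 to 16, 26.97, 574 and 1480 CPM in LT-HSC 17 to 34, and 181, 484 and 1733 CPM in CMP. These ranges overlapped over most of their length, and the pooled log2 ratio of LT-HSC over CMP was −0.00 (−0.06 to 0.06). Pooled Mrps33, a small-subunit protein without a bacterial relative, was at 431 CPM in LT-HSC 1 to 16, 387 in LT-HSC 17 to 34 and 394 in CMP. Mrpl33, of the large subunit, was at 358 CPM in LT-HSC 1 to 16, 349 in LT-HSC 17 to 34 and 432 in CMP. Mrps14, a protein of the small-subunit head, and Mrpl42, of the large subunit, were less even. Mrps14 stood at 240 CPM in LT-HSC 1 to 16, 530 in LT-HSC 17 to 34 and 378 in CMP, and Mrpl42 at 228 CPM in LT-HSC 1 to 16, 531 in LT-HSC 17 to 34 and 415 in CMP. Their log2 ratios between the gates were 0.19 and 0.04, with the LT-HSC sets on either side of CMP. Counts of 3′ ends were not divided by transcript length, and an order between genes is an order of counts only.

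**Figure D2:**
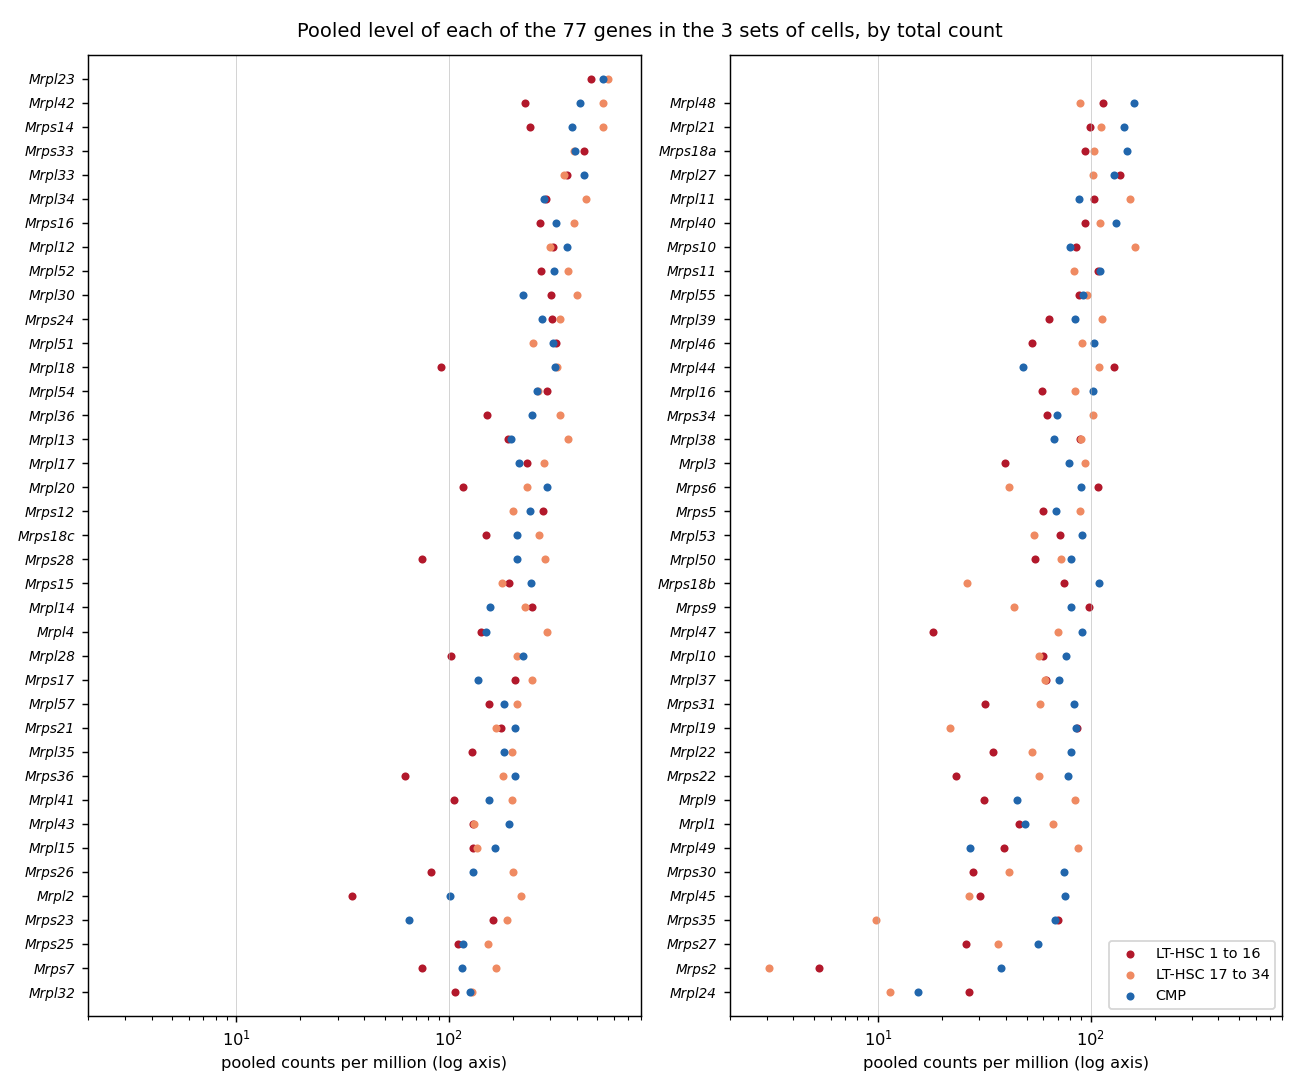
Pooled CPM on a log axis for all 77 genes, ordered by total count, with a dot for LT-HSC 1 to 16, LT-HSC 17 to 34 and CMP. Most genes show 3 dots close together; Mrps2, Mrps35, Mrpl19, Mrpl2 and Mrpl47 show dots far apart, and LT-HSC 1 to 16 is the lowest dot for 43 of 77 genes.

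Genes lower in LT-HSC than in CMP were scattered over the ribosome. Mrps2, a small-subunit protein of bacterial ancestry, was detected in 8 LT-HSC out of 34 and 21 CMP out of 24. It had 0 CPM in the median cell of both LT-HSC sets, 40.1 in the highest LT-HSC 1 to 16 and 56.8 in the highest LT-HSC 17 to 34, and in CMP 0, 11.97 and 352 CPM in the lowest, median and highest cell. Pooled, it stood at 3.83 CPM in LT-HSC and 38.1 CPM in CMP, a log2 ratio of −3.30 (−3.85 to −2.82). CMP 7 alone held 42.4% of the CMP counts, and without it the log2 ratio was −2.57.

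Mrpl45, a protein that ties the tunnel exit to the inner membrane, had 0, 4.94 and 321 CPM in the lowest, median and highest LT-HSC 1 to 16, and 0, 0.581 and 444 CPM in LT-HSC 17 to 34. In CMP it had 0, 36.0 and 309 CPM. A few LT-HSC were as high as any CMP, and the typical LT-HSC was lower. Pooled levels were 27.9 CPM in LT-HSC and 75.5 CPM in CMP, with a log2 ratio of −1.43 (−1.65 to −1.22). It was −0.74 with the mean of each cell's CPM and −1.71 without CMP 1 and 2, and it turned to 3.0 over cells without an Xist count, where CMP 1 and 2 alone stand for CMP. Mrps30, a large-subunit protein despite its symbol, stood at 36.7 CPM in LT-HSC and 74.9 CPM in CMP (log2 −1.03, −1.23 to −0.84), and 54.1% of its LT-HSC counts came from LT-HSC 17. Without that cell its log2 ratio was −2.04, and without CMP 17 it was −0.80.

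Mrps18b and Mrps35 were lower in LT-HSC 17 to 34 than in CMP or the other LT-HSC. Mrps18b, 1 of 3 mammalian relatives of bacterial S18, had pooled levels of 74.8 CPM in LT-HSC 1 to 16, 26.2 in LT-HSC 17 to 34 and 110 in CMP. Its relatives Mrps18a, in the large subunit, and Mrps18c, in the small subunit, stood at 93.8 and 150 CPM in LT-HSC 1 to 16, 104 and 266 CPM in LT-HSC 17 to 34 and 148 and 210 CPM in CMP. Of the 3, only Mrps18b passed 2-fold between the gates, at a log2 ratio of −1.36. That ratio was −1.64 without CMP 1 and 2 and −0.88 after thinning, and it turned to 3.98 over cells without an Xist count. Mrps35, a small-subunit protein found only in mitochondria, stood at 70.4 CPM in LT-HSC 1 to 16, 9.81 in LT-HSC 17 to 34 and 67.8 in CMP. Its log2 ratio of LT-HSC over CMP was −1.15 with all LT-HSC, −0.43 with the mean of each cell's CPM, −0.54 after thinning and 0.05 with LT-HSC 1 to 16 alone.

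Genes higher in LT-HSC were uneven across cells. Mrps23, a small-subunit protein without a bacterial relative, had 0, 7.34 and 923 CPM in the lowest, median and highest LT-HSC 1 to 16, 0, 104 and 705 CPM in LT-HSC 17 to 34, and 0, 27.9 and 527 CPM in CMP. Its pooled levels were 179 CPM in LT-HSC and 64.7 CPM in CMP, a log2 ratio of 1.46 (1.32 to 1.62). Mrpl44, a large-subunit protein with a ribonuclease III fold, had 0, 3.88 and 357 CPM in LT-HSC 1 to 16, 0, 3.76 and 241 CPM in LT-HSC 17 to 34, and 0, 26.4 and 179 CPM in CMP. Its median cell was lower in both LT-HSC sets than in CMP, while the pooled level was higher, at 116 CPM in LT-HSC and 48.1 CPM in CMP (log2 1.27, 1.09 to 1.45). With the mean of each cell's CPM the log2 ratio was 0.75, and after thinning 0.97. Fewer cells with more counts each gave the higher pooled value: 20 of 34 LT-HSC and 23 of 24 CMP had a count.

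Mrpl49, of the large subunit, was at 39.3 CPM in LT-HSC 1 to 16, 87.7 in LT-HSC 17 to 34 and 27.2 in CMP, and its log2 ratio of LT-HSC over CMP was 1.38 (1.15 to 1.62). Mrps17 and Mrps10, small-subunit proteins of bacterial ancestry, came next without reaching 2-fold, at log2 0.77 and 0.76.

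Between the LT-HSC sets the genes moved further apart. The median log2 ratio of LT-HSC 1 to 16 over LT-HSC 17 to 34 was −0.40, against 0.02 over all genes and −0.19 over genes of the same count range. The ratio was below 0 for 53 genes and above 0 for 24. It was below 0 for 5419 of all 10937 genes and for 3384 of the 6029 genes in the count range. At least 2-fold lower in LT-HSC 1 to 16 were 17 genes, 22.1% of them, against a background of 28%, and at least 2-fold higher 6 genes, 7.79%, against a background of 28.1%. The lower share was somewhat below the background and the higher share well below it; among genes of the same count range 26.8% were lower and 18.7% higher. With the mean of each cell's CPM the higher genes numbered 3. The median lay below that of all genes, with a narrower interquartile range of 0.99, against 2.45 for all genes. A total without cytoplasmic ribosomal proteins and Rn45s, which moved the median of all genes by 0.15, gave a summed log2 ratio of −0.26.

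Other transcripts separated the same sets. S phase genes summed to 1055 CPM in LT-HSC 1 to 16 and 3435 CPM in LT-HSC 17 to 34, and genes of G2 and M phase to 188 CPM in LT-HSC 1 to 16 and 1347 CPM in LT-HSC 17 to 34. Stem cell markers summed to 1410 CPM in LT-HSC 1 to 16 and 685 CPM in LT-HSC 17 to 34. CMP markers summed to 512 CPM in LT-HSC 1 to 16 and 1013 CPM in LT-HSC 17 to 34. Of 12 stem cell markers 1, Meis1, went against its sum, with a log2 ratio between the LT-HSC sets of −1.09. Of 11 CMP markers 3, Elane, Gata1 and Cebpa, were higher in LT-HSC 1 to 16. Of 7 T and NK cell markers the LT-HSC had counts of Nkg7 alone, which stood at 2.35 CPM in LT-HSC 1 to 16 and 530 CPM in LT-HSC 17 to 34. The part of these differences in the mitochondrial ribosomal result was not tested. Within sets, the share of mitochondrial ribosomal genes and that of S, G2 and M phase genes had a Spearman rho of 0.16 in LT-HSC 1 to 16 (Pearson r 0.29), 0.52 in LT-HSC 17 to 34 (r 0.52) and −0.21 in CMP (r −0.22).

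The genes furthest below in LT-HSC 1 to 16 included core large-subunit proteins. Mrpl2, a protein beside the catalytic centre, had 0, 4.45 and 192 CPM in the lowest, median and highest LT-HSC 1 to 16. It had 0, 171 and 536 CPM in LT-HSC 17 to 34 and 11.7, 121 and 264 CPM in CMP. Most LT-HSC 1 to 16 were thus below the lowest CMP, while LT-HSC 17 to 34 ran on both sides of CMP. Its pooled log2 ratio was −2.62 (−2.91 to −2.36) between the LT-HSC sets.

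Mrps28, of the small subunit, had 3.35, 24.8 and 571 CPM in LT-HSC 1 to 16, 0, 187 and 818 CPM in LT-HSC 17 to 34 and 19.6, 204 and 697 CPM in CMP. Its log2 ratio between the LT-HSC sets was −1.93 (−2.12 to −1.74), and −2.77 without LT-HSC 13. Mrpl47, at the tunnel exit, stood at 18.2 CPM in LT-HSC 1 to 16, 70.4 in LT-HSC 17 to 34 and 91.6 in CMP. Its log2 ratio between the LT-HSC sets was −1.94 (−2.36 to −1.57), and −3.56 without LT-HSC 3, which held 69.4% of the counts of its set.

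The highest ratios in LT-HSC 1 to 16 belonged to Mrps35, Mrpl19 and Mrps18b. Mrps35 had 0, 13.1 and 281 CPM in the lowest, median and highest LT-HSC 1 to 16, 0, 0.581 and 285 CPM in LT-HSC 17 to 34 and 11.6, 73.4 and 260 CPM in CMP. The LT-HSC 1 to 16 fell into a few high cells and a larger number near 0, and CMP filled the gap between. Its log2 ratio between the LT-HSC sets was 2.83 (2.44 to 3.26). Mrpl19, of the large subunit, stood at 86.5 CPM in LT-HSC 1 to 16, 21.8 in LT-HSC 17 to 34 and 85.4 in CMP. Its log2 ratio between the LT-HSC sets was 1.99 (1.70 to 2.29), and it was 1.33 without LT-HSC 4, 3.0 without LT-HSC 29, 0.65 with the mean of each cell's CPM and 0.95 after thinning. For Mrps18b the log2 ratio was 1.51 (1.23 to 1.80), 2.72 without LT-HSC 24 and 0.95 without LT-HSC 7.

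**Figure D3:**
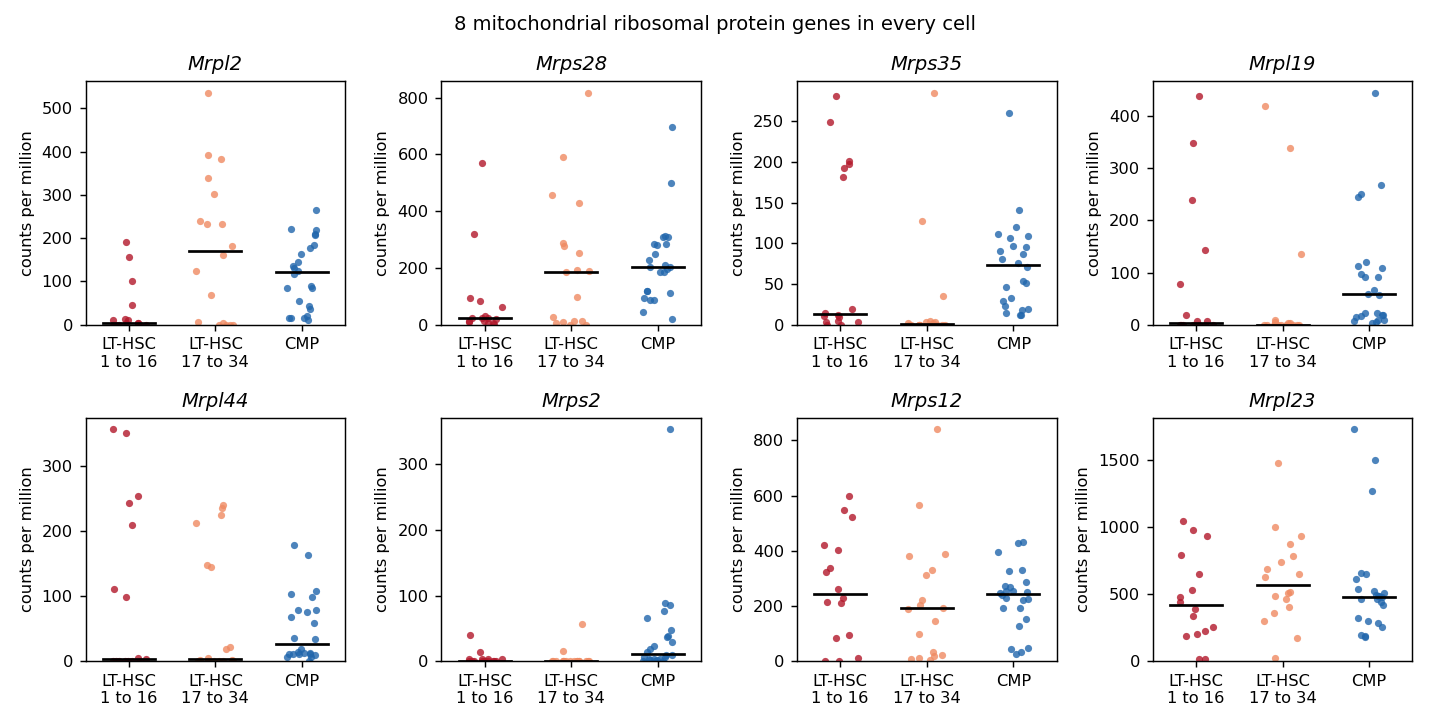
CPM of 8 genes in every cell, with 1 point per cell and a black line at the median of LT-HSC 1 to 16, LT-HSC 17 to 34 and CMP. Mrpl2 and Mrps28 are low in most LT-HSC 1 to 16, Mrps35 and Mrpl19 are near 0 in most LT-HSC 17 to 34 and low in the median LT-HSC 1 to 16 (13.1 and 3.19 CPM, against 73.4 and 58.1 CPM in CMP), Mrpl44 is near 0 in most LT-HSC and high in a few, Mrps2 is near 0 in nearly all LT-HSC, and Mrps12 and Mrpl23 overlap in all 3 sets.

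The 3 sets were also placed side by side. LT-HSC 1 to 16 held the lowest pooled level for 43 genes, or 55.8% of them, against 42.7% of genes in the same count range and 38.5% of all genes. LT-HSC 17 to 34 held it for 21 genes, or 27.3%, against 29.1% in the count range, and CMP for 13, or 16.9%, against 28.1%. The highest level was that of LT-HSC 1 to 16 for 12 genes (15.6%, against 27.4% in the count range), that of LT-HSC 17 to 34 for 36 (46.8%, against 32.0%) and that of CMP for 29 (37.7%, against 40.7%).

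Lower in LT-HSC 1 to 16 by at least 2-fold than in both other sets were 8 genes, against a background of 20.5% of all genes: Mrpl2, Mrpl18, Mrpl20, Mrpl28 and Mrpl47 of the large subunit, Mrps22 and Mrps28 of the small subunit, and Mrps36. They made up 10.4% of the 77, against 19.6% in the count range. None was higher there than in both, with a background of 12.7%. Lower in LT-HSC 17 to 34 than in both were 4 genes, Mrpl19, Mrps6, Mrps18b and Mrps35 (background 18.7%), and higher there were 2, Mrpl2 and Mrpl49 (background 9.56%). Higher in CMP than in both LT-HSC sets were Mrpl45 and Mrps2 (background 19.4%), and lower were Mrpl44 and Mrps23 (background 11%). In all 3 comparisons 45 genes, or 58.4%, stayed under 2-fold, against 21.3% of all genes and 31.2% in the count range. Against CMP, LT-HSC 1 to 16 had 2 genes at least 2-fold higher and 14 lower, with backgrounds of 22.7% and 37.3% of all genes, and LT-HSC 17 to 34 had 5 higher and 6 lower, with backgrounds of 20% and 34.5%.

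Of 8 listed genes whose human counterparts are mutated in mitochondrial disease, 4 lay above and 4 below 0 on the log2 scale between the gates. In LT-HSC 1 to 16 over CMP 7 of 8 lay below 0, with a median of −0.44, beside 55 of all 77 genes, with a median of −0.27. In LT-HSC 17 to 34 over CMP 5 of 8 lay above 0, with a median of 0.27, beside 39 of all 77, with a median of 0.01. Over all 10937 genes these medians were −0.36 and −0.24, with 6391 genes below 0 in the first comparison and 4726 above 0 in the second. Mrps16, of the small subunit, was at 269 CPM in LT-HSC 1 to 16, 387 in LT-HSC 17 to 34 and 319 in CMP. Mrpl12, the stalk protein that receives translation factors, was at 309 CPM in LT-HSC 1 to 16, 299 in LT-HSC 17 to 34 and 362 in CMP. Both stayed under 2-fold in all 3 comparisons. Mrps22, of the small subunit, stood at 23.2 CPM in LT-HSC 1 to 16, 57.5 in LT-HSC 17 to 34 and 78.4 in CMP, and Mrpl3, which shapes the catalytic centre, at 39.6 CPM in LT-HSC 1 to 16, 94.5 in LT-HSC 17 to 34 and 79.0 in CMP. For Mrps22 the log2 ratio between the LT-HSC sets was −1.30, and −0.61 without LT-HSC 27. Over the 8 listed disease genes the median log2 ratio was 0.03 between gates and −0.62 between the LT-HSC sets, beside −0.06 and −0.40 over all 77. Mrps12, whose product takes part in decoding, stood at 276 CPM in LT-HSC 1 to 16, 200 in LT-HSC 17 to 34 and 240 in CMP. The separate gene Mrps36 stood at 62.5 CPM in LT-HSC 1 to 16, 181 in LT-HSC 17 to 34 and 205 in CMP.

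The genes were also grouped by position in the ribosome and by ancestry, beside medians over all 77 genes of −0.06 between gates and −0.40 between the LT-HSC sets. The median log2 ratio of LT-HSC over CMP was −0.32 over 7 genes of the central protuberance, a ridge of the large subunit. It was −0.26 over 5 genes of the factor-binding stalk and its base, and −0.00 over 7 genes at the tunnel exit. Between the LT-HSC sets it was −0.11 for the protuberance, 0.07 for the stalk and −0.27 for the tunnel exit. Large-subunit genes with bacterial relatives had a median of −0.06 between gates and −0.52 between the LT-HSC sets over 31 genes. Large-subunit genes found only in mitochondria had −0.18 and −0.25 over 19 genes. In the small subunit, 17 genes with bacterial relatives had 0.02 and −0.12, and 9 found only in mitochondria 0.03 and −0.50.

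The gates stood further apart in how many of these genes a cell showed. After thinning each cell to 97978 counts, an LT-HSC had counts for 28 to 62 of the 77 genes, with a median of 52 over 30 cells, and a CMP for 62 to 76, with a median of 71.5 over 22 cells. Without thinning the values were 32 to 72 (median 60.5) over 34 LT-HSC and 71 to 77 (median 76) over 24 CMP. Of the thinned LT-HSC, 2 of 30 reached the lowest CMP. A larger share of thinned CMP than of thinned LT-HSC had a count for 76 of the 77 genes, and the share was the same for the remaining gene. The like count over other genes was not made. The median number of thinned cells with a count was 20 of 30 LT-HSC and 21 of 22 CMP over the 77 genes. Over the 6029 genes in the count range it was 11 of 30 LT-HSC and 15 of 22 CMP.

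The table as a whole ran likewise. Of the 6029 genes in the same range of counts, the median thinned LT-HSC showed 42.3% and the median thinned CMP 68.8%, and all symbols with a count numbered 2457 to 4006 per thinned LT-HSC and 3688 to 6435 per thinned CMP. With at least 3 counts required, the genes numbered 20 to 57 (median 35) in LT-HSC and 44 to 70 (median 59.5) in CMP. Those medians are 45.5% and 77.3% of the 77 genes, against 28.7% of count-range genes in LT-HSC and 45.5% in CMP. With at least 10 required they numbered 14 to 49 (median 31.5) in LT-HSC and 33 to 54 (median 42.5) in CMP, and the ranges overlapped. Those medians are 40.9% and 55.2% of the 77 genes, against 22.6% of count-range genes in LT-HSC and 26.01% in CMP.

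Among cells with a count, the gates were close. Among thinned cells with a count, the median over genes of the median level was 148 CPM in LT-HSC and 117 CPM in CMP. It was higher in LT-HSC for 42 of 77 genes. The cells with a count were a median of 66.7% of thinned LT-HSC and 95.5% of thinned CMP. These levels therefore compare unlike parts of the 2 gates, and other genes were not compared in this way. The coefficient of variation over thinned cells had a median of 1.35 in LT-HSC and 0.900 in CMP. It was 2.13 in LT-HSC and 1.40 in CMP for genes of the same count range, 0.791 in LT-HSC and 0.509 in CMP for respiratory chain genes, and 0.320 in LT-HSC and 0.218 in CMP for cytoplasmic ribosomal proteins. In CMP 53 of the 77 genes had a count in every unthinned cell, and in LT-HSC 5: Mrpl13, Mrpl23, Mrpl30, Mrpl52 and Mrps14. Of the 6029 genes in the count range, 1399 had a count in every unthinned CMP and 147 in every unthinned LT-HSC. Leaving out CMP 1 and 2 gave thinned CMP a range of 65 to 76 and a median of 72 genes.

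The rest of the mitochondrial translation machinery was measured at far fewer counts. Of 6 ribosomal subunits that carry other symbols, such as Gadd45gip1 and Chchd1, none differed 2-fold between gates, with a median log2 ratio of −0.34. These 6 summed to 873 CPM in LT-HSC and 1122 CPM in CMP. Of them 3, or 50%, were at least 2-fold lower in LT-HSC 1 to 16 than in LT-HSC 17 to 34. The background was 28%, and the median of the 6 was −0.91. Of 14 translation factors and cofactors 1 (7.14%) was at least 2-fold higher and 5 (35.7%) lower in LT-HSC than in CMP (median 0.04). Their most counted were Slirp, which stabilises mitochondrial messengers, and Tufm, the elongation factor that delivers tRNA. Of 21 assembly factors, led in counts by Malsu1 and Ngrn, 3 (14.3%) were higher and 6 (28.6%) lower (median 0.00). The background over all genes was 22.7% higher and 28.1% lower.

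Of 19 mitochondrial tRNA ligases, led by Fars2 and Hars2, 7 (36.8%) were at least 2-fold higher and 4 (21.1%) lower in LT-HSC than in CMP (median 0.51). Genes that copy and transcribe mitochondrial DNA, with their regulators, had a median of −0.44 over 18 genes, with 2 (11.1%) higher and 6 (33.3%) lower. The background was again 22.7% higher and 28.1% lower. Between the LT-HSC sets the medians were −0.26 for translation factors, 0.47 for assembly factors, 0.23 for tRNA ligases and −0.48 for genes of mitochondrial DNA expression. The respiratory chain followed the ribosome more closely, with a median of −0.47 between the LT-HSC sets, while cytoplasmic ribosomal proteins had 0.33. No cytoplasmic ribosomal protein differed 2-fold in either comparison.

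**Figure D4:**
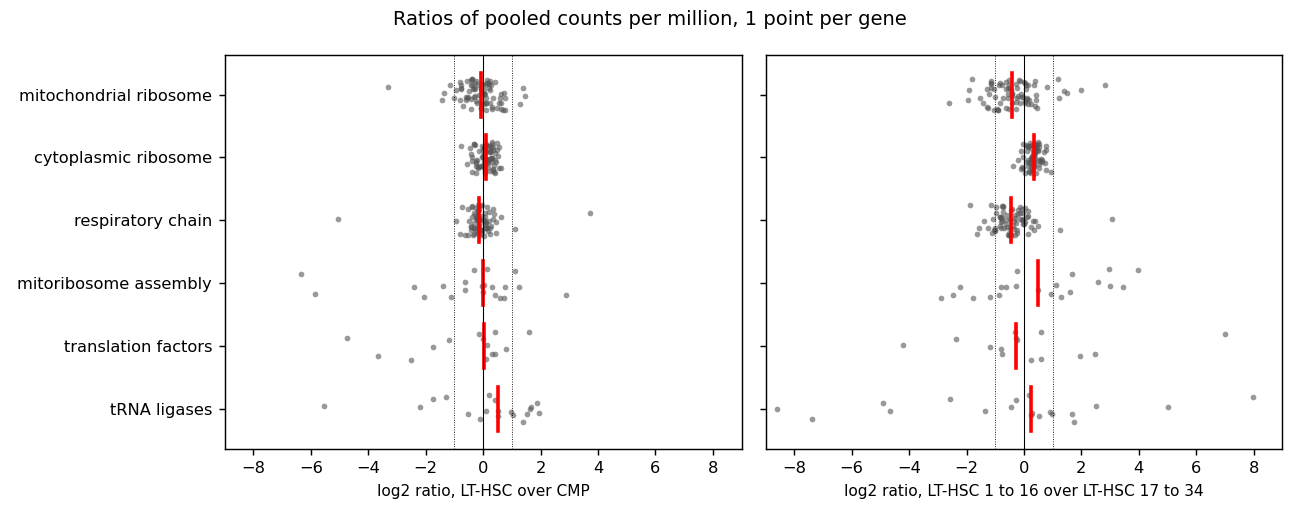
Log2 ratios of pooled CPM, with 1 point per gene, for mitochondrial ribosomal genes and 5 related lists; red bars are medians, dotted lines mark 2-fold, and the panels show LT-HSC over CMP and LT-HSC 1 to 16 over LT-HSC 17 to 34. The ribosome's median moves to −0.40 in the second panel, beside −0.47 for the respiratory chain and 0.33 for the cytoplasmic ribosome, and the short lists of factors spread much more widely.

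Many of the genes sit head to head with a neighbour. A protein-coding gene on the opposite strand started within 500 bp for 17 of the 77 genes, or 22.1%, against 6.16% of 21938 protein-coding genes in GENCODE M21. The pairs did not share levels in every case. Sars2, a mitochondrial tRNA ligase gene, starts 172 bp from Mrps12. It was at 0 CPM in LT-HSC 1 to 16, 56.3 in LT-HSC 17 to 34 and 11.8 in CMP. In LT-HSC 1 to 16, 3 counts would be 0.880 CPM. Mrps12 differed by less than 2-fold between any of these sets. Fau, which starts 59 bp from Mrpl49 and encodes a cytoplasmic ribosomal protein, had a log2 ratio of LT-HSC over CMP of 0.34, beside 1.38 for Mrpl49. Psma2, a proteasome gene 75 bp from Mrpl32, had −0.09, beside −0.06 for Mrpl32. These pairs were picked after their values were seen.

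Exons of 19 of the 77 genes overlap another gene that has counts in these cells. Whether counting used the strand is not given in the sources used here. Mrpl46 and Mrps11 overlap each other, Mrpl36 overlaps the respiratory chain gene Ndufs6, Mrpl18 overlaps the chaperonin gene Tcp1, and Mrpl47 overlaps Ndufb5 and Actl6a. Levels of such genes may include reads of their neighbours or have lost reads to them, and the size of this was not tested.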

How the data were processed

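Whole-number counts per gene and cell were deposited by the authors as 1 table of 58 cells. Per the submitters' processing notes, the build was mm10, and Seurat 2.0, HTSeq and TopHat2 2.0.12 were among the tools, without a role for any. Per the labels' protocols, cDNA of barcoded single cells was amplified, pooled and captured at its 3′ ends. Columns were matched to cells by title. No cell or gene was removed before totals were taken.

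Pooled counts of each set were divided by the pooled total, with exact Poisson 95% intervals. Log2 ratios used 0.5 added to each pooled count, with exact conditional binomial intervals. A gene was counted as different at 2-fold. Each gate is 1 sample, so no test was made. For detection, cells were thinned at random to 97978 counts, which is the 10th percentile of cell totals, leaving out those with less. The ratio script was tested on simulated data. Python 3.11.15, numpy 2.4.6, scipy 1.17.1, pandas 2.3.3 and matplotlib 3.10.9 were used.

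The genes, the gene lists, the split of LT-HSC and the alternatives were chosen with earlier results of these data known. Motifs, promoter windows, the distance to a neighbour and the minimums of 3 and 10 counts for detection were chosen after the values were seen. Named were the 5 genes with the most counts and, among genes with 50 or more counts that were detected in 1 of every 3 cells (or more) of the pool where they were higher, and did not owe most of its counts to 1 cell, the 5 highest and 5 lowest log2 ratios of LT-HSC to CMP and the 3 highest and 3 lowest between the LT-HSC sets. Mrps12, Mrpl12, Mrps16, Mrps22, Mrpl3, Mrpl44, Mrps18a, Mrps18b, Mrps18c, Mrps36 and Mrps30 were always named. Further genes were named where a count or pattern held few. Protein sequences and mitochondrially encoded genes were not analysed here.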

Additional observations from a re-analysis of the deposited data

How the results depend on the processing

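No paired analysis was possible because the cells' numbers tie no LT-HSC to a CMP and the results come from no test. Each gate is 1 sample, so animal, sort and gate cannot be told apart, nor can Xist counts, which nearly coincide with the gate. Depth limits single genes, many of which rest on a few cells. Of the detections in thinned cells, 26.8% in LT-HSC and 15.4% in CMP rested on 1 or 2 counts.

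The summed log2 ratio of LT-HSC to CMP was −0.0003. It was −0.12 with the mean of each cell's CPM, 0.15 with median-of-ratios scaling, 0.051 with a total without cytoplasmic ribosomal proteins and Rn45s and −0.11 after thinning. It was −0.026 without CMP 1 and 2, 0.12 over cells without an Xist count, −0.28 with LT-HSC 1 to 16 only, 0.13 with LT-HSC 17 to 34 only and −0.037 to 0.019 with single cells left out. Its sign is therefore not settled. Over cells without an Xist count, where CMP is CMP 1 and 2 alone, the median over genes was 0.17, the 2-fold line was passed by 17 genes upward in LT-HSC and 9 downward, and Mrpl45 and Mrps18b turned to 3.0 and 3.98. Genes at least 2-fold higher numbered 1 after thinning and 5 with LT-HSC 17 to 34 only. Genes at least 2-fold lower numbered 3 with the mean of each cell's CPM, 3 with median-of-ratios scaling and 14 with LT-HSC 1 to 16 only, and 4 to 7 with single cells left out. The log2 ratio of Mrps35 turned to 0.055 with LT-HSC 1 to 16 only.

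Between the LT-HSC sets, the summed log2 ratio of −0.41 kept its direction in every alternative run. It was −0.37 with the mean of each cell's CPM, −0.38 with median-of-ratios scaling, −0.26 without cytoplasmic ribosomal proteins and Rn45s, and −0.46 to −0.37 with single cells left out, and the median over genes was −0.47 to −0.30 with single cells left out. Genes at least 2-fold higher in LT-HSC 1 to 16 numbered 3 with the mean of each cell's CPM, and 5 to 9 with single cells left out, and those at least 2-fold lower 14 to 20. Other minimum counts, other added counts and leaving out shallow cells moved none of these summed values, medians or counts beyond their counting error or 1.5 times. The cause of the values over cells without an Xist count was not tested, and its CMP pool is 2 cells.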
